A study of Mus musculus with 14 samples.

Results

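The unfolded protein response and the ATF4 program were followed across 36 listed genes in regulatory T cells (Tregs) from tumor and spleen. The list was set by gene function, with earlier results of these data known. Genes were matched by NCBI Gene number, and all 36 of the list were found among the 27179 genes counted. The list held 15 chaperones and folding enzymes of the endoplasmic reticulum (ER), with the retrieval receptor Kdelr3 counted among them. It also held 4 genes of ER-associated degradation, 7 stress sensors and transcription factors and 4 feedback and stress outputs. The rest were 3 enzymes of amino acid synthesis and 3 tRNA synthetases. Tregs are the suppressive CD4 T cells defined by the transcription factor Foxp3, and here they were sorted by YFP fluorescence from a Foxp3-driven transgene. All mice had MC38 colon carcinoma growing in the flank and were taken at tumor endpoint, and their polyadenylated RNA was read by sequencing of ultra-low-input libraries.

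The 4 groups were 3 tumor libraries labelled Flox, 4 tumor libraries labelled WT, 3 spleen libraries labelled Flox and 4 spleen libraries labelled WT. The Flox label stands for the strain B6.IL23RFlox FoxP3Cre-YFP, homozygous for a loxP-flanked Il23r allele that the Foxp3-driven Cre is meant to delete in Tregs only. The WT label stands for B6.IL23RWT FoxP3Cre-YFP, with intact Il23r and the same driver. Both genotypes therefore carried Cre-YFP and both bore tumors, so the spleen libraries are from tumor-bearing mice. Whether each replicate is a separate mouse is not stated in the labels, and the p-values then cover only the spread among these libraries, which may be technical.

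When unfolded proteins accumulate in the ER, membrane sensors answer. IRE1, the product of Ern1, splices Xbp1 mRNA, PERK, the product of Eif2ak3, slows translation and favours that of Atf4, and Atf6 is cut to release a transcription factor. Their targets include ER chaperones, the degradation machinery and, through ATF4, genes of amino acid supply and tRNA charging. ATF4 also answers amino acid shortage without ER stress. Splicing of Xbp1 and the translation of Atf4 are not read by counts per gene, so the values below are transcript levels only.

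Promoter sequences are shown for 5 ER chaperone genes because they carry the ER stress response element (ERSE), the sequence bound by ATF6 with NF-Y, and because 4 of them were higher in tumor while Dnajc3 had the lowest fold change of the list. Each line gives the 250 bases before the RefSeq start on GRCm38.p6, 5′ to 3′ in the direction of the gene. Capitals mark the ends of the element, CCAAT and CCACG with any 9 bases between them, or their reverse complement.
Hspa5, chr2:34771840-34772089, plus strand: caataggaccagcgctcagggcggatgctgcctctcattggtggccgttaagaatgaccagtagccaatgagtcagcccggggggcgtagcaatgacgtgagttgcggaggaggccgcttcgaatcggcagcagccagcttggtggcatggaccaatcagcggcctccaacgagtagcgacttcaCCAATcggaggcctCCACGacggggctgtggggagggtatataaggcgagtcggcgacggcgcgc
Hsp90b1, chr10:86705445-86705694, minus strand: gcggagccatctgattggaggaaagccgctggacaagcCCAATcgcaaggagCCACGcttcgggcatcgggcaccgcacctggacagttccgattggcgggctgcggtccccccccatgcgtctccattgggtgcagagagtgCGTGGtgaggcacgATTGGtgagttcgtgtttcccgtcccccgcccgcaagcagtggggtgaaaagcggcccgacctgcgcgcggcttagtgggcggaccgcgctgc
Calr, chr8:84846932-84847181, minus strand: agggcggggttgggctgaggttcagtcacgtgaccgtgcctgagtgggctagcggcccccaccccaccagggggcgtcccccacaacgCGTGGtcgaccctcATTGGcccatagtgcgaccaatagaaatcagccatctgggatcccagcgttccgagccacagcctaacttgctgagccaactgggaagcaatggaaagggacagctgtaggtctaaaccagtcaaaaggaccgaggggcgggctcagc
Creld2, chr15:88819396-88819645, plus strand: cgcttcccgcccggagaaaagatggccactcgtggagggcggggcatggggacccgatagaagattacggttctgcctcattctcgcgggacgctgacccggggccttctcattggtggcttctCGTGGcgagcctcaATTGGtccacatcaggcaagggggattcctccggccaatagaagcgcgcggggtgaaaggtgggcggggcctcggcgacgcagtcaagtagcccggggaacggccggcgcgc
Dnajc3, chr14:118937682-118937931, plus strand: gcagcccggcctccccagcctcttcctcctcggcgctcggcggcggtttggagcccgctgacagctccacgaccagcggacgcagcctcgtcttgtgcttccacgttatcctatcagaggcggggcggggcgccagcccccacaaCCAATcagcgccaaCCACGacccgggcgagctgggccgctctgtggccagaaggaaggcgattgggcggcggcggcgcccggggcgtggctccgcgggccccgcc

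The element lay on the gene's own strand in Hspa5, beginning at position -65 from the start, and in Dnajc3, beginning at position -105. Hsp90b1 held it on both strands, at positions -212 and -107, and Calr and Creld2 held it on the opposite strand. Promoters from 250 bases before to 50 bases after the start were in the RefSeq table for 31 of the 36 members. Of these 31 genes, 8 held the full ERSE on either strand (Hspa5, Hsp90b1, Pdia6, Calr, Canx, Dnajc3, Creld2 and Syvn1), against 0.119% of all 32851 promoters in the table. ERSE-II, ATTGG and CCACG with 1 base between, was found in Dnajb11 and Herpud1, against 0.0365% of all promoters. TGATGNAAT, the ATF4 element with its last base fixed as T, was found in 1 member, Gars (0.965% of all promoters). The core TGACGTGG bound by XBP1 was found in 1, Kdelr3 (0.676%). Forms of the ATF4 element with another last base were not sought, and the Asns promoter holds TGATGAAAC, which the pattern misses. Each motif was sought on both strands, and no member promoter held more than 1 of these 4 patterns as written. A match describes these letters and not binding.

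The libraries held between 4859099 and 10333892 counts. Levels below are CPM, read counts scaled to library sizes adjusted by the TMM method. Foxp3 stood at 92.0 to 232 CPM in tumor and 105 to 276 CPM in spleen. Il23r went against the labels in tumor, with 4, 7 and 6 counts in the Flox-labelled libraries and 0, 2, 0 and 0 in the WT-labelled ones. In spleen it had 1, 0 and 9 counts in the Flox-labelled libraries and 0, 0, 2 and 0 in the WT-labelled ones. Counts cover the whole gene, and which exons the allele deletes is not known here, so every direction below follows the labels. Reads of 4 Y-linked genes numbered 3224 to 8650 in the Flox-labelled libraries and 1 to 10 in 6 of the 8 WT-labelled ones, so sex and genotype cannot be told apart. WT replicate 2 of tumor (1184 Y-linked and 527 Xist counts) and WT replicate 2 of spleen (482 and 928) held both kinds of read, and results are also given without them.

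Per kilobase of exon, the chaperone Canx had the highest level of the list, with a median of 464 CPM per kilobase in tumor and 366 in spleen. Herpud1, which recruits the degradation machinery, followed at 109 in tumor and 61.7 in spleen. Hspa5 stood at 59.8 in tumor and 30.8 in spleen, Atf4 at 49.8 in tumor and 20 in spleen, and Hsp90b1 at 48.6 in tumor and 28.2 in spleen. Cebpb had a median of 45.0 CPM per kilobase in tumor and 7.81 in spleen. At the low end, Ern1 had medians of 0.660 CPM per kilobase in tumor and 0.0967 in spleen. Chac1, an enzyme that degrades glutathione, had 32 counts over all 14 libraries and was too low to test.

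Tregs from tumor were compared with Tregs from spleen over both genotypes. In tumor, 13 of the 35 members tested were higher and 0 were lower (edgeR quasi-likelihood F test, Benjamini-Hochberg adjusted p under 0.05 over all 12008 genes tested). They were the chaperones Hspa5, Hsp90b1, Calr, Dnajb9, Manf and Creld2, the ER retrieval receptor Kdelr3 and the sensors Ern1 and Eif2ak3. The others were the transcription factors Xbp1, Atf4 and Cebpb and the asparagine synthetase gene Asns. These 13 are 37.1% of the members, against 24.1% of all genes called in either direction, 13.0% called higher and 11.2% called lower. At an unadjusted p under 0.05 there were 18 members, 16 higher and 2 lower, against 37.3% of all genes. By sign 28 members were higher and 7 lower, and the median log2 fold change was 0.78 over the members and 0.02 over all genes tested. DESeq2 called 14 members, 13 higher and 1, Dnajc3, lower, beside 3747 of the 12008 genes. With limma voom 12 members were called, all higher, beside 2664 of the 12008 genes. In bulk RNA, fewer cells of a type and less RNA per cell cannot be told apart.

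The count of 13 leans on some libraries. It was 8 without tumor Flox replicate 3 and 8 without spleen Flox replicate 1, both without Calr, Dnajb9, Manf, Xbp1 and Atf4, and 12 without both WT replicate 2 libraries, where Manf and Atf4 were lost and Herpud1 passed. Over all genes these fits called 2434 of 12542, 2473 of 12570 and 2687 of 11791, in that order. Within the Flox-labelled libraries alone 2 of 35 members passed (Cebpb and Asns), beside 847 of 10760 genes. Within the WT-labelled libraries alone 3 of 34 members passed (Kdelr3, Cebpb and Asns), beside 750 of 10560 genes. In neither genotype alone did the members stand clearly apart from all genes. Cebpb and Asns passed in each of the 23 alternatives run, whereas Atf4 and Manf passed in 8 of them and Calr in 13. With DESeq2, Ern1 was lost and Dnajc3 and Herpud1 passed.

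**Figure D1:**
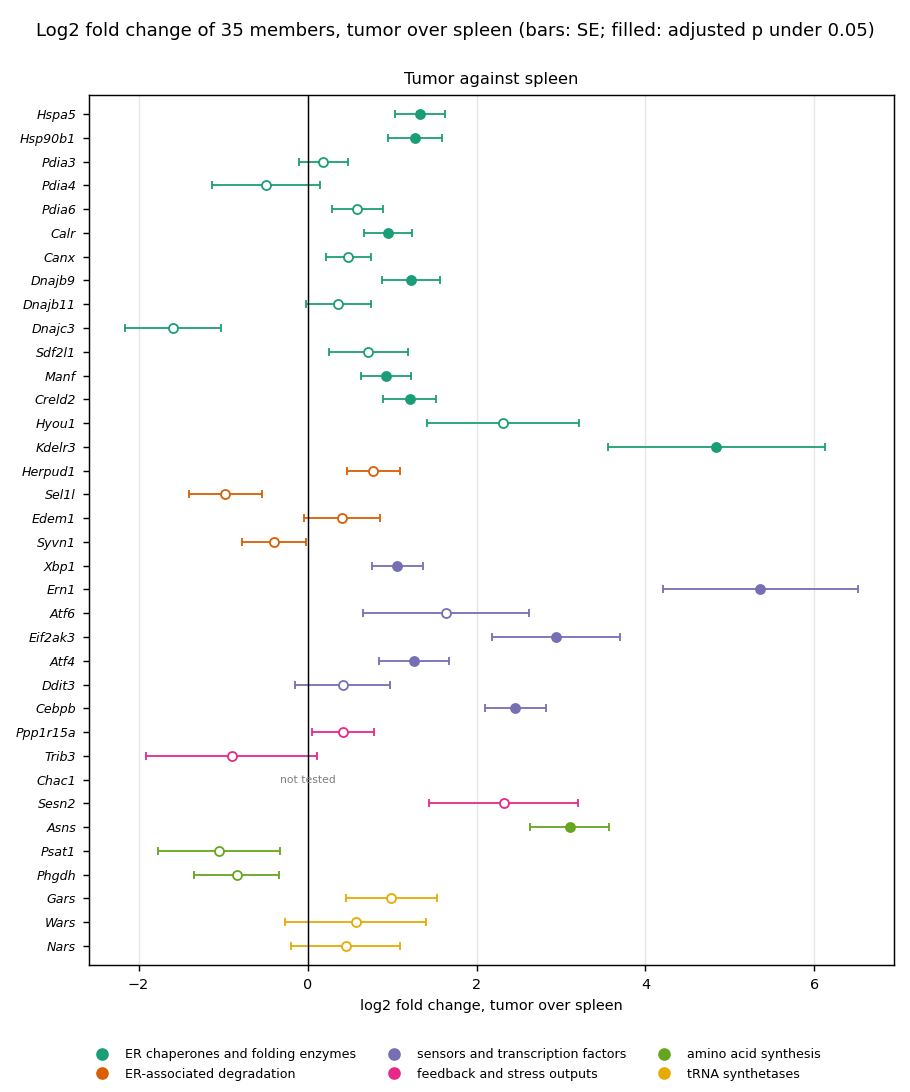
Log2 fold change of tumor over spleen for each member, by role, with bars of 1 SE; filled points passed the adjusted p of 0.05 and Chac1 was not tested. The 13 filled points all lie right of 0, from 0.93 for Manf to 5.36 for Ern1.

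Among the chaperones and folding enzymes, 7 of 15 passed, all higher in tumor, and the median log2 fold change was 0.93. Hspa5 encodes BiP, the main Hsp70 chaperone of the ER lumen. It had 387, 253 and 137 CPM in tumor libraries labelled Flox and 416, 239, 224 and 362 CPM in those labelled WT. In spleen it had 104, 97 and 112 CPM in Flox-labelled and 130, 136, 131 and 164 CPM in WT-labelled libraries. In 6 of 7 tumor libraries Hspa5 lay above every spleen library, and tumor Flox replicate 3 lay within the spleen range. The log2 fold change was 1.33 ± 0.29 (SE, edgeR adjusted p = 0.00648).

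Hsp90b1, the ER member of the Hsp90 family (GRP94), had 196, 290.0 and 184 CPM in Flox-labelled and 554, 191, 244 and 187 CPM in WT-labelled tumor libraries. Its spleen levels were 88.1, 114 and 117 CPM in Flox-labelled and 131, 105, 141 and 106 CPM in WT-labelled libraries. Every tumor library lay above every spleen library, as held for 5.30% of all genes tested, and the reverse held for 4.01%. The log2 fold change was 1.28 ± 0.32 (SE, edgeR adjusted p = 0.0116). Hsp90b1, Cebpb and Asns were the 3 members without overlap of the tissues.

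Creld2, an ER protein that helps other proteins fold, ranged from 6.20 to 15.0 CPM in tumor (median 8.05) and from 2.76 to 6.34 CPM in spleen (median 4.06), a log2 fold change of 1.21 ± 0.32 (SE, edgeR adjusted p = 0.0153). Dnajb9, a co-chaperone of BiP, ranged from 4.42 to 20.4 CPM in tumor and from 3.69 to 12.8 CPM in spleen. Its lowest tumor value, in Flox replicate 1, lay among the spleen libraries, while the other 6 tumor libraries lay above all of them. The log2 fold change of Dnajb9 was 1.22 ± 0.34 (SE, edgeR adjusted p = 0.0199).

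Calr, the calcium-binding lectin chaperone calreticulin, ranged from 17.5 to 28.4 CPM in tumor and from 9.48 to 21.2 CPM in spleen (log2 fold change 0.96 ± 0.29, SE, edgeR adjusted p = 0.0275). Manf, a secreted ER-stress protein, ranged from 10.4 to 17.1 CPM in tumor and from 4.93 to 14.1 CPM in spleen (log2 fold change 0.93 ± 0.30, SE, edgeR adjusted p = 0.0363). Both overlapped between tissues. Kdelr3, a receptor that returns escaped ER proteins, had 246 CPM in tumor WT replicate 1 and 66.5 CPM in WT replicate 3. In the other 5 tumor libraries it had 0.380 to 2.21 CPM, and in spleen 0 to 1.37 CPM. For Kdelr3 the log2 fold change was 4.84 ± 1.29 (SE, edgeR adjusted p = 0.0162), and 3.91 without tumor WT replicate 1, and the call was lost without spleen Flox replicate 3.

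The other 8 chaperones and folding enzymes did not pass. Dnajc3, a BiP co-chaperone that also inhibits PERK, was the lowest by fold change and was named after its values were seen. It ranged from 13.2 to 45.8 CPM in tumor (median 16.4) and from 25.8 to 292 CPM in spleen (median 46.1), and 5 of 7 tumor libraries lay below every spleen library. The log2 fold change was -1.59 ± 0.56 (SE, edgeR adjusted p = 0.0563), and -1.0 without spleen WT replicate 2, the library at 292 CPM. Hyou1, a large Hsp70-related chaperone, reached 585 CPM in tumor WT replicate 4, with 5.45 to 28.9 CPM in the other tumor libraries and 3.58 to 11.5 CPM in spleen. The disulfide isomerases Pdia3, Pdia4 and Pdia6, the lectin chaperone Canx, the co-chaperone Dnajb11 and the ER protein Sdf2l1 had log2 fold changes between -0.49 (Pdia4) and 0.72 (Sdf2l1). All 6 overlapped between tissues.

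By median, Canx stood at 2179 CPM in tumor and 1718 CPM in spleen, and Pdia3 at 143 CPM in tumor and 142 CPM in spleen. Pdia6 had medians of 20.5 CPM in tumor and 12.8 CPM in spleen, Dnajb11 of 19.4 and 12.9 CPM, and Sdf2l1 of 5.20 and 3.16 CPM. Pdia4 had a median of 17.0 CPM in tumor and 21.3 CPM in spleen, where WT replicate 2 reached 180.3 CPM.

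Set beside the promoters printed above, 4 of the 8 members with a full ERSE passed and were higher in tumor, namely Hspa5, Hsp90b1, Calr and Creld2. All of these 8 but Syvn1 are chaperones and folding enzymes, of which 46.7% passed. Of all members 37.1% passed, and 13.0% of all genes were called higher. A link between the element and the calls was not tested. Pdia6, Canx, Syvn1 and Dnajc3 carry the same element and did not pass. Pdia6 had a log2 fold change of 0.59, Canx of 0.48 and Syvn1 of -0.40.

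None of the 4 degradation genes passed, and 2 had an unadjusted p under 0.05, Herpud1 and Sel1l. Herpud1 ranged from 179 to 537 CPM in tumor (median 253) and from 122 to 282 CPM in spleen (median 144), with a log2 fold change of 0.78 ± 0.31 (SE, edgeR adjusted p = 0.0880). Sel1l and Syvn1, the adaptor and the ubiquitin ligase of the same complex, had log2 fold changes of -0.97 and -0.40. Sel1l ranged from 12.9 to 21.0 CPM in tumor and from 15.8 to 97.2 CPM in spleen, and Syvn1 from 4.02 to 7.08 CPM in tumor and from 3.69 to 19.1 CPM in spleen. Edem1, which marks misfolded glycoproteins for disposal, ranged from 51.5 to 440 CPM in tumor (median 167) and from 80.6 to 293 CPM in spleen (median 196), with a fitted log2 fold change of 0.41.

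All 7 sensors and transcription factors had positive fitted log2 fold changes, and 5 passed, though the median level of Atf6 was lower in tumor. Cebpb, a leucine zipper transcription factor and partner of ATF4 (chromosome 2, 167688915 to 167690432, GRCm38.p6), had the smallest p of the list. It had 55.3, 61.6 and 67.7 CPM in Flox-labelled and 127, 71.7, 65.2 and 79.4 CPM in WT-labelled tumor libraries. Spleen levels were 10.8, 11.8 and 11.2 CPM in Flox-labelled and 22, 24.3, 17.8 and 7.34 CPM in WT-labelled libraries. The lowest tumor library was above the highest spleen library, and the log2 fold change was 2.46 ± 0.36 (SE, edgeR adjusted p = 0.000587).

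Xbp1, the transcription factor whose mRNA IRE1 splices, had 21.0, 15.3 and 21.2 CPM in Flox-labelled and 29.4, 19.3, 15.9 and 15.9 CPM in WT-labelled tumor libraries. In spleen it had 7.17, 11.4 and 10.1 CPM in Flox-labelled and 8.99, 16.2, 8.28 and 8.89 CPM in WT-labelled libraries. Only spleen WT replicate 2, at 16.2 CPM, reached into the tumor range. The log2 fold change was 1.06 ± 0.31 (SE, edgeR adjusted p = 0.0234).

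Atf4 had 147, 118 and 100.2 CPM in Flox-labelled and 48.1, 229.6, 72.1 and 129 CPM in WT-labelled tumor libraries. In spleen it had 24.8, 86.9 and 47.1 CPM in Flox-labelled and 53.5, 69.7, 45.2 and 45.6 CPM in WT-labelled libraries. The tissues overlapped through tumor WT replicates 1 and 3. Atf4 had a log2 fold change of 1.27 ± 0.41 (SE, edgeR adjusted p = 0.0409), and the call was lost in 10 of the 14 fits that left out 1 library.

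Ern1 and Eif2ak3 passed with large and uneven values. Ern1 had 108 CPM in tumor Flox replicate 2 and 136 CPM in tumor WT replicate 1, and 3.02 to 15.6 CPM in the other 5 tumor libraries. Spleen levels of Ern1 ran from 0.209 to 3.09 CPM. The fitted log2 fold change was 5.36 ± 1.15 (SE, edgeR adjusted p = 0.00554), and 3.74 without tumor Flox replicate 2, and DESeq2 did not call Ern1. Eif2ak3 had 41.7, 21.3 and 395 CPM in Flox-labelled tumor libraries, 9.88, 5.82, 37.8 and 8.05 CPM in WT-labelled ones, and 2.51 to 16 CPM in spleen. Its log2 fold change of 2.94 ± 0.76 (SE, edgeR adjusted p = 0.0139) was 1.77 without tumor Flox replicate 3.

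Atf6 and Ddit3 did not pass. Atf6 was split within the tissue, with 426, 331 and 375 CPM in tumor Flox replicate 3, WT replicate 2 and WT replicate 4, and 14.8 to 39.2 CPM in the other 4. In spleen Atf6 ranged from 4.18 to 107 CPM. The median of Atf6 was 39.2 CPM in tumor and 68.6 CPM in spleen, while its fitted log2 fold change was 1.64 ± 0.98 (SE) and turned negative without tumor Flox replicate 3. Ddit3, which encodes the death-associated factor CHOP, ranged from 2.45 to 15.5 CPM in tumor and from 1.74 to 20.6 CPM in spleen. Between tissues its log2 fold change was 0.42 ± 0.56 (SE, edgeR adjusted p = 0.625).

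Of the 9 tested genes of feedback, amino acid synthesis and tRNA charging, Asns passed and the others did not. Asns (chromosome 6, 7675165 to 7693209, GRCm38.p6) makes asparagine from aspartate. It had 4.93, 6.59 and 8.45 CPM in Flox-labelled and 3.48, 2.48, 3.60 and 5.33 CPM in WT-labelled tumor libraries. Its spleen levels were 0.316, 0.126 and 1.23 CPM in Flox-labelled and 0.314, 0.722, 0.818 and 0.773 CPM in WT-labelled libraries. All tumor libraries lay above all spleen libraries, and the log2 fold change was 3.10 ± 0.47 (SE, edgeR adjusted p = 0.000723). Asns had only 1 to 14 counts per spleen library, too low to test within spleen, and entered this comparison through its tumor counts. The separation and the size of the change therefore rest on few spleen reads.

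Psat1 and Phgdh, enzymes of serine synthesis, had log2 fold changes of -1.05 and -0.84 and did not pass. Phgdh ranged from 7.24 to 55.8 CPM in tumor and from 25.0 to 85.2 CPM in spleen, and Psat1 from 8.62 to 56.6 CPM in tumor and from 5.31 to 104 CPM in spleen. The tRNA synthetase genes Gars, Wars and Nars, for glycine, tryptophan and asparagine, had log2 fold changes of 0.99, 0.57 and 0.45. Gars had a median of 37.4 CPM in tumor and 27.6 CPM in spleen, Wars of 5.48 and 6.90 CPM, and Nars of 24.2 and 34.2 CPM. For Wars and Nars, as for Atf6 and Edem1, the median over libraries was thus lower in tumor while the fitted change was positive. Wars had a single tumor library at 155 CPM and Nars a single one at 292 CPM. Among the feedback genes, Ppp1r15a, a phosphatase subunit that restores translation, had 0.42, with medians of 54.1 CPM in tumor and 40.1 CPM in spleen. Sesn2, a stress-induced inhibitor of mTORC1, had 2.32 (edgeR adjusted p = 0.0731), with 1 tumor library at 144 CPM and the others at 2.16 to 4.94 CPM. Trib3, a pseudokinase that restrains ATF4, had -0.90, with 0.366 to 82.7 CPM in tumor and 0.562 to 34.6 CPM in spleen.

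**Figure D2:**
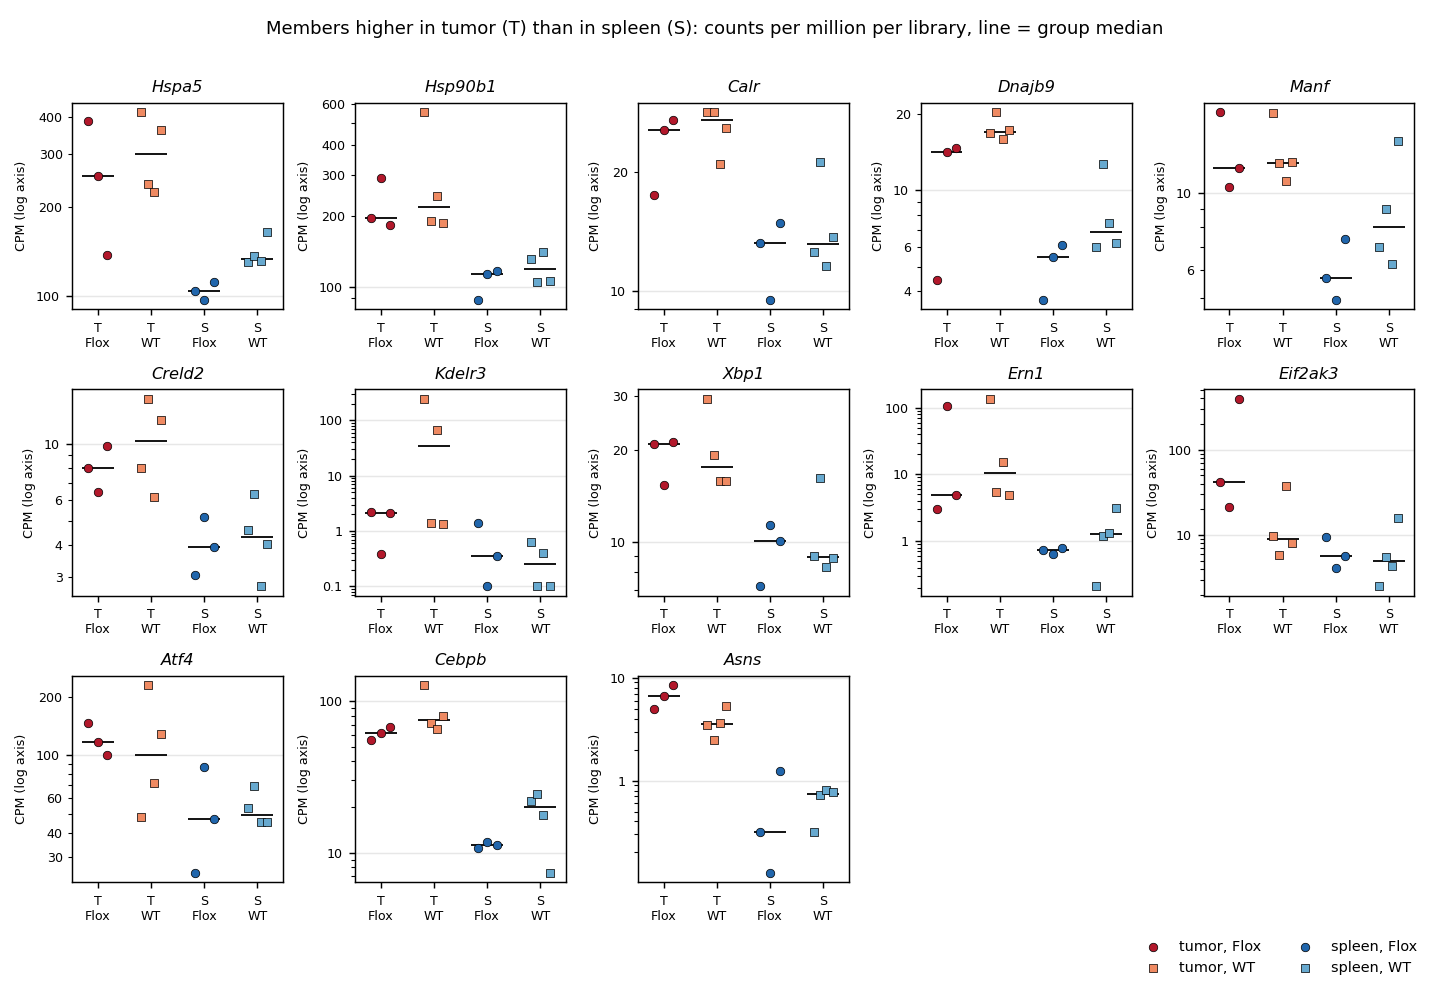
CPM in each library, on log axes, for the 13 members that were higher in tumor; each point is 1 library, lines are group medians and values under 0.1 CPM are drawn at 0.1. Hsp90b1, Cebpb and Asns show no overlap between tumor and spleen, whereas Kdelr3, Ern1 and Eif2ak3 spread over more than 10-fold within tumor.

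Further genes of both programs were read beside the list. Of 28 further ER folding and degradation genes tested, 6 were higher and 0 lower in tumor (21.4% called, against 24.1% of all genes), with a median log2 fold change of 0.76. The 4 with the smallest p were Ero1a, the oxidase that recharges disulfide isomerases (log2 fold change 4.41), the signal peptidase subunit Spcs1 (1.26), the retrieval receptor Kdelr2 (1.72) and the prolyl isomerase Fkbp2 (1.00). Of 13 further regulators of the response, 1 was higher (7.69%), Creb3l2 (2.98). Of 24 further ATF4 targets tested, 6 were higher and 1 lower (29.2%), with a median of 0.75. Atf3 (6.18), Ddit4 (2.79), Vldlr (3.97) and Atf5 (2.97) had the smallest p, and the isoleucyl-tRNA synthetase gene Iars was lower (-2.04).

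Markers of other cells differed between the tissues as well. B cell and plasma cell markers summed to 134 to 350.3 CPM in tumor and 509 to 2565 CPM in spleen, and 12 of the 13 tested were lower in tumor. The medians of Cd22, Jchain and Mzb1 were 0 in tumor and 9.41, 18.3 and 0.307 CPM in spleen. Cd74 and Ighm had the highest tumor medians of this list, at 102 and 50.8 CPM. In spleen Cd74 had 44.1 CPM and Ighm 256 CPM. By median, Cd74 and Sdc1 (0.380 CPM in tumor, 0 in spleen) thus went the other way. Fibroblast and endothelial markers summed to 37.4 to 271 CPM in tumor and 57.0 to 169 CPM in spleen. Of the 5 tested, Col1a1, Col1a2, Col3a1 and Dcn were higher in tumor. Their medians were 2.22 to 15.6 CPM in tumor and 0 to 0.126 CPM in spleen. Pecam1 had medians of 42.1 CPM in tumor and 104 CPM in spleen, where it carried most of the sum.

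Macrophage and monocyte markers summed to 44.6 to 402 CPM in tumor and 178 to 416 CPM in spleen, with 5 of 11 tested higher in tumor and 1 lower. Fn1 was highest of these in tumor at a median of 53.3 CPM, and Cd68 had 4.47 CPM in tumor and 1.16 CPM in spleen. Apoe had medians of 22.8 CPM in tumor and 191 CPM in spleen. Dendritic cell markers summed to 6.12 to 29.0 CPM in tumor and 0.716 to 55.7 CPM in spleen, with 1 of 3 tested higher, and Clec9a and Siglech had medians of 0 in both. CD8 T and NK cell markers summed to 2.45 to 11.9 CPM in tumor and 3.16 to 38.8 CPM in spleen, with 1 of 4 tested lower. Carcinoma markers summed to 1.10 to 4.47 CPM in tumor and 3.85 to 29.4 CPM in spleen, with the 1 tested, Epcam, lower in tumor. Epcam had medians of 2.91 CPM in tumor and 7.34 CPM in spleen. Krt8, Krt19, Krt7, Cldn4, Cldn7 and Cdh1 had medians of 0 in both tissues, though Cdh1 averaged 6.29 CPM in Flox-labelled spleen libraries.

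Treg and T cell markers summed to 4584 to 8811 CPM in tumor and 2434 to 3990 CPM in spleen, with 4 of 8 higher in tumor. Immediate early and heat shock genes that respond to cell handling summed to 1538 to 4405 CPM in tumor and 1789 to 2846 CPM in spleen, with 4 of 16 called higher in tumor (Ier3, Jund, Dusp1 and Zfp36). By sign 15 of these 16 genes were higher in tumor, with a median log2 fold change of 0.80, beside 28 of 35 and 0.78 for the members. The part of these lists in the members' differences was not tested.

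Flox-labelled Tregs were next compared with WT-labelled Tregs within tumor, the question the series poses about loss of the IL-23 receptor. None of the 35 members tested passed, and 0% of 10777 genes passed (edgeR quasi-likelihood F test, adjusted p under 0.05). By sign, 17 members were higher and 18 lower, with a median log2 fold change of -0.07 against -0.06 over all genes, and 3 to 6 of these signs changed when 1 library was left out. At an unadjusted p under 0.05 there were 3 members, against 8.08% of all genes, and 3 members had groups that did not overlap, against 5.20%. Those without overlap were Trib3 and Syvn1, higher in each Flox-labelled library, and Dnajb9, lower in each. DESeq2 called 1 member, Kdelr3, beside 266 of the 10777 genes, and voom called 0 members. Without WT replicate 2 the edgeR count stayed at 0.

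Trib3 had the smallest p of the list. It had 9.25, 82.7 and 6.65 CPM in Flox-labelled and 0.366, 2.70, 0.577 and 1.25 CPM in WT-labelled tumor libraries. The lowest Flox-labelled library was above the highest WT-labelled one. The log2 fold change of Trib3 was 4.71 ± 1.14 (SE, edgeR adjusted p = 0.584), and 2.66 without Flox replicate 2. Dnajb9 had 4.42, 14.2 and 14.8 CPM in Flox-labelled and 16.8, 20.4, 16 and 17.4 CPM in WT-labelled libraries. Syvn1 had 5.73, 5.58 and 7.08 CPM in Flox-labelled and 4.02, 5.18, 5.34 and 4.42 CPM in WT-labelled libraries.

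Of the other members with a small p, Eif2ak3, Kdelr3, Hyou1 and Nars rested on 1 or 2 libraries. Eif2ak3 had a log2 fold change of 3.31 ± 1.22 (SE, edgeR adjusted p = 0.584), and 1.04 without Flox replicate 3. Kdelr3 had -5.64 ± 2.13 (SE, edgeR adjusted p = 0.584), with its high values in WT replicates 1 and 3. Hyou1 had -4.23 ± 1.84 (SE, edgeR adjusted p = 0.584), and -0.75 without WT replicate 4. Nars had 2.17 ± 1.04 and -0.18 without Flox replicate 3, and Asns had 0.83 ± 0.39, both with an edgeR adjusted p of 0.584. The fold change of Asns stayed between 0.63 and 1.09 in the 14 alternatives, and it passed in 0 of them.

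Of the central genes of the response, Hspa5, Xbp1 and Atf4 had small differences with wide limits in tumor. Hspa5 averaged 259 ± 125 CPM in Flox-labelled (SD, n = 3) and 310.2 ± 93.7 CPM in WT-labelled libraries (SD, n = 4). Its log2 fold change was -0.27 ± 0.54 (SE), with 95% limits of -1.52 and 0.98 and an edgeR adjusted p of 0.916. Xbp1 had -0.07 ± 0.45 (limits -1.12 and 0.98, edgeR adjusted p = 0.980) and Atf4 had 0.03 ± 0.67 (limits -1.52 and 1.58, edgeR adjusted p = 0.995). Ddit3 had 2.51, 15.5 and 15.0 CPM in Flox-labelled and 3.84, 2.59, 2.45 and 7.82 CPM in WT-labelled libraries. This gave Ddit3 a larger log2 fold change of 1.38 ± 0.71 (SE, 95% limits -0.27 and 3.03, edgeR adjusted p = 0.584).

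**Figure D3:**
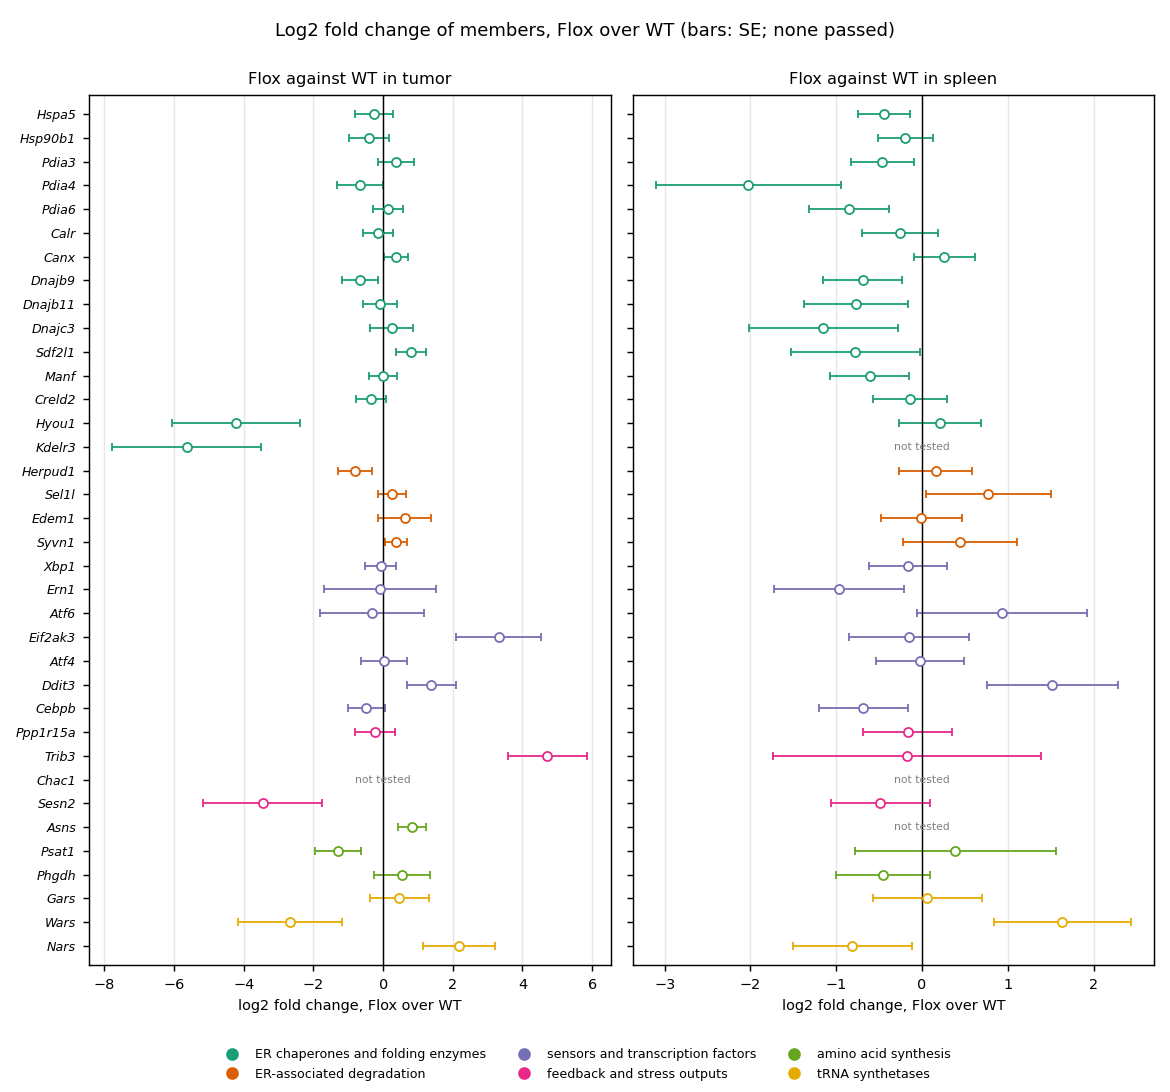
Log2 fold change of Flox over WT for each member in tumor (left) and spleen (right), by role, with bars of 1 SE; open points did not pass, and the horizontal scales differ. No member passed in either tissue, and the widest bars are those of Kdelr3 and Hyou1 in tumor and of Trib3 in spleen.

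Related genes gave no call in tumor Flox against WT. The smallest p in each list belonged to Selenos (log2 fold change -3.79) and Derl1 (1.93) of ER folding and degradation, Mbtps2 (2.16) and Eif2ak2 (1.55) of the regulators, and Slc7a1 (1.85) and Eprs (1.24) of the ATF4 targets. Of the macrophage and monocyte markers, 8 of 11 tested were higher by sign, summing to 132 to 402 CPM in the Flox-labelled group and 44.6 to 229.6 CPM in the WT-labelled group. Of the cell handling genes, 14 of 16 were lower by sign. Their part in the values above was not tested.

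In spleen, Flox-labelled against WT-labelled Tregs again gave no call. None of the 33 members tested passed (Kdelr3, Chac1 and Asns were too low), and 0% of 10935 genes did (edgeR quasi-likelihood F test, adjusted p under 0.05). At an unadjusted p under 0.05 there were 0 members, against 6.86% of all genes, and DESeq2, voom and the fit without WT replicate 2 each called 0 members. By sign, 10 members were higher and 23 lower, and the median log2 fold change was -0.18 against -0.06 over all genes. Of these 33 signs, 10 changed without Flox replicate 1 (Creld2 and Hyou1 among the chaperones) and 3 to 5 when any other library was left out. Of the 14 chaperones and folding enzymes tested, 12 were lower by sign, with a median of -0.54. The further genes did not share this direction. By sign, 15 of 28 further ER folding and degradation genes were higher (median 0.09). Among further regulators 9 of 12 were higher (median 0.65), and among further ATF4 targets 13 of 19 (median 0.25). Hspa5 and Pdia6 were lower in each Flox-labelled library than in each WT-labelled one, against 5.97% of all genes whose groups did not overlap in either direction.

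Hspa5 averaged 104 ± 7.22 CPM in Flox-labelled (SD, n = 3) and 140.4 ± 16.1 CPM in WT-labelled spleen libraries (SD, n = 4). Its log2 fold change was -0.45 ± 0.30 (SE, 95% limits -1.14 and 0.25, edgeR adjusted p = 0.755). Pdia6, a disulfide isomerase, had 8.76, 11 and 12.4 CPM in Flox-labelled and 18.3, 29.0, 16.7 and 12.8 CPM in WT-labelled libraries. Pdia6 had a log2 fold change of -0.85 ± 0.46 (SE, edgeR adjusted p = 0.694). Pdia4 had -2.02 ± 1.08 (SE, edgeR adjusted p = 0.692), and -0.58 without WT replicate 2, which held 180.3 CPM.

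Wars had the smallest p in spleen, with 52.7, 6.82 and 6.94 CPM in Flox-labelled and 6.90, 10.1, 5.21 and 5.99 CPM in WT-labelled libraries. For Wars the log2 fold change was 1.64 ± 0.80 (SE, edgeR adjusted p = 0.674), and -0.04 without Flox replicate 1. Ddit3 had 1.52 ± 0.77 (SE, edgeR adjusted p = 0.674), and 0.13 without Flox replicate 2, at 20.6 CPM. Dnajb9 had -0.69 ± 0.46 (SE, edgeR adjusted p = 0.752). Xbp1 had -0.16 ± 0.45 (SE, edgeR adjusted p = 0.954) and Atf4 had -0.02 ± 0.51 (SE, edgeR adjusted p = 0.995).

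Some lists of other cell markers, and the cell handling genes, were also mostly lower by sign in Flox-labelled spleen libraries, and other lists were not. B cell and plasma cell markers summed to 509 to 698 CPM in Flox-labelled and 825 to 2565 CPM in WT-labelled libraries, and 12 of the 13 tested were lower by sign (median log2 fold change -1.29). Macrophage and monocyte markers summed to 178 to 290.0 CPM in Flox-labelled and 218 to 416 CPM in WT-labelled libraries, with 7 of 8 lower by sign (median -1.22). Cell handling genes summed to 1789 to 2486 CPM in Flox-labelled and 2210 to 2846 CPM in WT-labelled libraries, with 12 of 15 lower by sign (median -0.38). The dendritic cell and carcinoma lists had 1 tested gene each, both higher (Itgax, log2 fold change 4.85, and Epcam, 0.65). CD8 T and NK cell markers had 1 higher and 1 lower, and the 1 fibroblast and endothelial marker tested was lower (-0.11). The part of these lists in the chaperone values was not tested. Among related genes none passed, and the smallest p belonged to Sil1 (log2 fold change -1.80) and Ero1a (1.69), to Ppp1r15b (1.33) and Mbtps1 (0.95), and to Shmt2 (1.47) and Vars (0.98).

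The difference of the Flox effect between tumor and spleen was tested in 1 fit of all 14 libraries. None of the 35 members passed, and 0% of 12008 genes did (edgeR quasi-likelihood F test, adjusted p under 0.05). At an unadjusted p under 0.05 there were 6 members, against 10.8% of all genes, and DESeq2 and voom each called 0 members. Kdelr3 (-6.57 ± 2.43), Hyou1 (-4.46 ± 1.80) and Wars (-4.33 ± 1.74) had negative differences of log2 fold changes (± SE), and Trib3 (4.86 ± 2.12), Eif2ak3 (3.54 ± 1.45) and Nars (3.02 ± 1.31) positive ones. The edgeR adjusted p of these 6 lay between 0.425 and 0.444. Hspa5 had a difference of 0.17 ± 0.58, Xbp1 of 0.10 ± 0.61, Atf4 of 0.06 ± 0.81 and Ddit3 of -0.15 ± 1.12 (edgeR adjusted p between 0.951 and 0.995).

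Uneven libraries were common in the list and in the whole table. In tumor, the highest of the 7 libraries reached at least 5 times the median library in 9 of the 35 tested members (Hyou1, Kdelr3, Ern1, Atf6, Eif2ak3, Trib3, Sesn2, Wars and Nars), against 33.9% of all genes. In spleen this held for 5 members (Pdia4, Dnajc3, Ddit3, Trib3 and Wars), against 23.3%. Within the WT-labelled groups, 1 library stood far from the other 3 (gap above Dixon's 95% critical value) in 8 members in tumor, against 24.0% of all genes with at least 30 counts over the group, and in 6 members in spleen, against 19.6%. That makes 14 of 68 combinations of member and group, against 21.8% over all genes. No single library carried these peaks. Tumor Flox replicate 3 and tumor WT replicate 1 were each highest of all 14 in 6 members, and spleen Flox replicates 1 and 2 were lowest in 8 and 7.

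**Figure D4:**
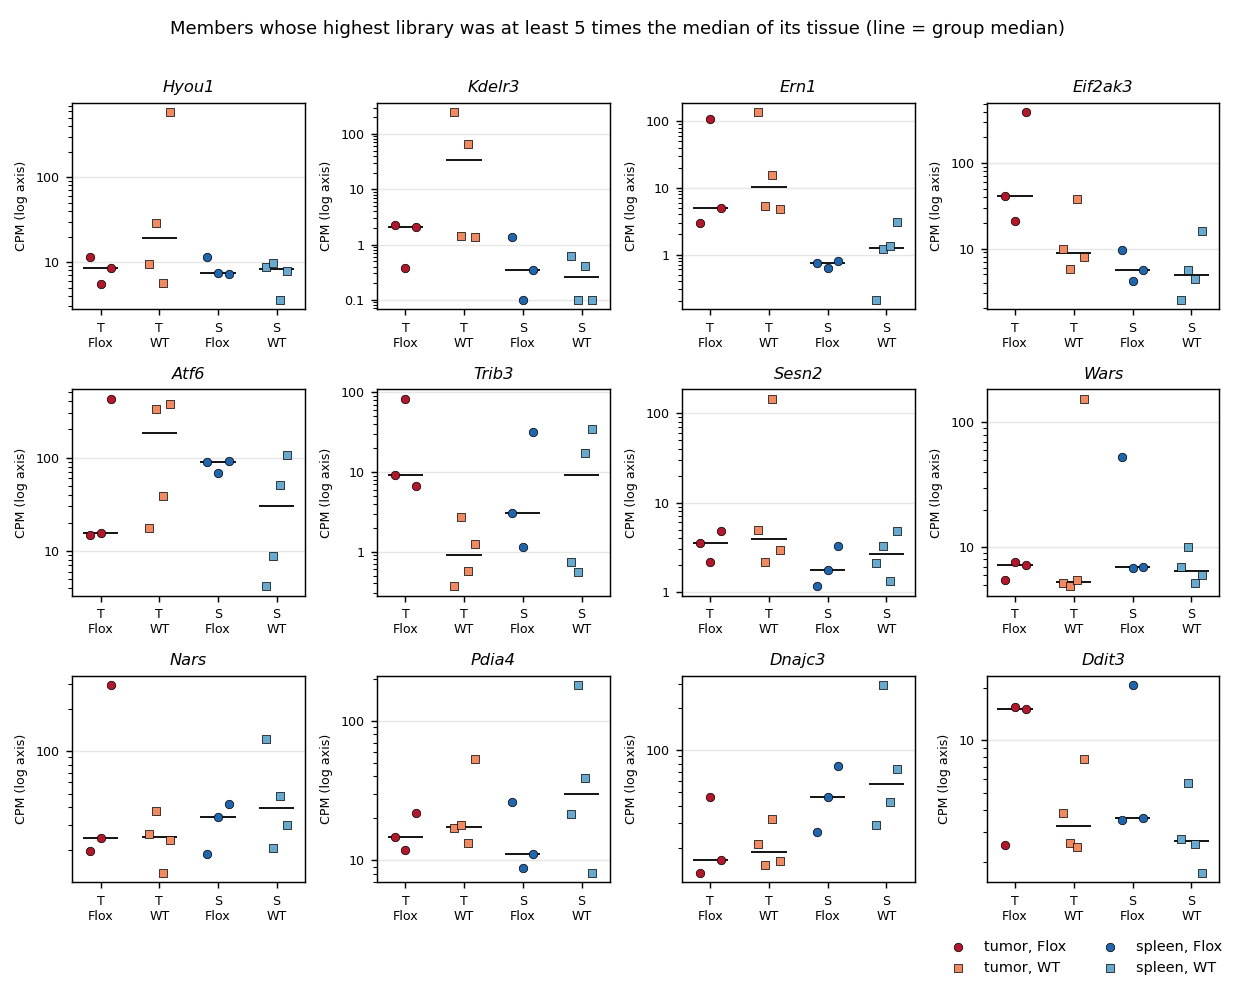
CPM in each library, on log axes, for the 12 members whose highest library reached at least 5 times the median of its tissue; each point is 1 library, lines are group medians and values under 0.1 CPM are drawn at 0.1. The high points belong to different libraries from gene to gene, such as tumor WT replicate 4 for Hyou1 and Wars and tumor Flox replicate 3 for Eif2ak3 and Nars.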

How the data were processed

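Polyadenylated RNA of sorted Tregs was sequenced in 14 libraries (3 tumor Flox, 4 tumor WT, 3 spleen Flox, 4 spleen WT, grouped by the labels). The authors deposited unnormalized read counts for each gene in 1 table. Extraction used a Qiagen RNeasy Plus micro kit, per the labels' protocols. The submitters' processing notes name mm10. No source used here gives the aligner, counting tool or strand setting, so reads of overlapping or antisense genes and of near-identical copies could not be separated.

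Deposited counts went into edgeR 4.0.16 (TMM, quasi-likelihood F test, filterByExpr by group, Benjamini-Hochberg over all genes tested, threshold 0.05) in R 4.3.3. Only the libraries of a contrast entered each Flox against WT fit, and all 14 entered the others. The SE is the absolute log2 fold change divided by the square root of F, and the 95% limits use it. CPM are counts scaled to TMM-adjusted library sizes. The members, the lists and the alternatives were chosen with earlier results of these data known. Every member that passed, or otherwise the 6 with the smallest p, was given with its test, and Hspa5, Xbp1, Atf4 and Ddit3 always. Up to 4 passing genes of related lists were named, or the 2 with the smallest p.

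Each fit was also run on simulated counts, drawn independently for each library, and no result here rests on that run. Alternatives were DESeq2 1.42.0, limma 3.58.1 (voom with quality weights), RLE scaling, no filter, a stricter filter (5 CPM in at least 3 libraries), a replicate block, 1 fit of all 14 libraries, single genotypes, no WT replicate 2 libraries, and each library left out. Gene coordinates and promoters are RefSeq's on GRCm38.p6. Of the 36 members, 5 had no promoter entry.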

Additional observations from a re-analysis of the deposited data

Results flagged for a closer look

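Single libraries that stood far from the other 3 of their group were found for 14 of the 68 member and group combinations tested (members with at least 30 counts over a WT-labelled group of 4), where chance flags about 1 in 20. Over all genes with as many counts, 21.8% of gene and group combinations had such a library, so the members' count is near that of the whole table. In the WT-labelled tumor libraries, Hsp90b1 had 554 CPM in replicate 1 (187 to 245 CPM in the other 3), Ern1 had 136 CPM in replicate 1 (4.88 to 15.6), and Gars had 111 CPM in replicate 2 (27.6 to 38.6). Eif2ak3 had 37.8 CPM in replicate 3 (5.82 to 9.88) and Sesn2 had 144 CPM in replicate 3 (2.16 to 4.94). Pdia4 had 53.6 CPM in replicate 4 (13.3 to 17.8), Hyou1 had 585 CPM in replicate 4 (5.62 to 28.9), and Wars had 155 CPM in replicate 4 (4.85 to 5.48).

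In the WT-labelled spleen libraries, Dnajb11 had 39.8 CPM in replicate 1 (12.2 to 16 CPM in the other 3) and Sdf2l1 had 13.4 CPM in replicate 1 (1.64 to 3.21). Replicate 2, in which Xist and Y-linked reads occurred together, held the high values of Dnajc3 (292 CPM, with 29.2 to 72.6 in the others), Herpud1 (282 CPM, with 122 to 144) and Xbp1 (16.2 CPM, with 8.28 to 8.99). Phgdh had 85.2 CPM in replicate 4 (30.2 to 34.6).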

How the results depend on the processing

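In tumor against spleen, the 13 members called were higher in each of the 23 alternatives that tested them, but calls were lost. Among the other members 0 to 3 signs changed per alternative (Trib3, Nars, Wars, Pdia3, Pdia4, Edem1, Sdf2l1, Syvn1 and Atf6). The 13 members called became 7 without a low-count filter, 7 with the replicate block (without Calr, Manf, Xbp1, Ern1, Eif2ak3 and Atf4), 2 in Flox-labelled and 3 in WT-labelled libraries alone, and 8 to 14 when 1 library was left out. The 2897 genes called became 1823 with the replicate block, 847 in Flox-labelled and 750 in WT-labelled libraries alone, which hold fewer samples. Same-numbered tumor and spleen libraries did not deviate together (correlations -0.03 to 0.05 over 7 pairs), and the main fit did not take the numbers as pairs. At a biological coefficient of variation of 0.815, these correlations cannot decide whether same-numbered libraries share a mouse. Both WT replicate 2 libraries mixed reads of the sexes. Xist counts in tumor and spleen were 701 and 670 for WT replicate 1, 3763 and 4116 for replicate 3, but 4232 and 806 for replicate 4. If the numbers are pairs, the 7 calls with the block apply rather than the 13. In tumor Flox against WT, DESeq2 called 266 genes and 1 member (Kdelr3), and voom called 1 gene. In spleen DESeq2 called 124 genes, the 5 CPM filter 1, the fit of all 14 libraries 4, and fits without 1 library 0 to 1. For the difference between tissues DESeq2 called 153 genes and fits without 1 library 0 to 1.

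Leaving out 1 library changed 3 to 6 of 35 member signs in tumor Flox against WT, 3 to 10 of 33 in spleen and 0 to 5 of 35 for the difference. In tumor Flox against WT, leaving out 1 library gave log2 fold changes of -0.21 to 0.54 for Atf4, -0.16 to 0.20 for Xbp1, -0.67 to 0.05 for Hspa5 and -0.18 to 2.67 for Nars. In spleen it gave -0.59 to 0.32 for Atf4, -0.31 to 0.10 for Xbp1 and -0.04 to 2.08 for Wars, and Atf4 was 0.02 with no filter. For the difference it gave -0.24 to 0.47 for Hspa5, -0.27 to 0.64 for Atf4, -0.55 to 1.26 for Ddit3 and -0.16 to 0.37 for Xbp1. Ddit3 was 0.13 with voom and 0.05 with the block, and Xbp1 was -0.23 without both WT replicate 2 libraries. The cause was not tested. The biological coefficient of variation was 0.852 in tumor and 0.721 in spleen, and the SE of log2 fold changes over all genes had a median of 0.74 and 0.61, which limits what a missed call can show.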
